A study of Mus musculus with 2 samples.

Results

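Laminins and the other glycoproteins of the basement membrane were examined through 10 genes, of 28692 genes counted, in single cells of the gonadal white adipose tissue (gWAT) of mice. The genes were chosen by name, with earlier results of these data known: the laminin alpha chains Lama2, Lama4 and Lama5, the beta chains Lamb1 and Lamb2, the gamma chain Lamc1, the nidogens Nid1 and Nid2, the perlecan gene Hspg2, and Sparc. All 10 were found in the count matrices of both libraries, and 47 other basement membrane genes were read beside them. The study compared mice whose adipocytes lack the glycolytic enzyme Pgam1 with littermate control mice, and the stromal vascular fraction (SVF), the cells left when fat is digested and the floating adipocytes are taken off, was sequenced with 10x 3′ chemistry. There was 1 library per genotype, both from male C57BL/6 mice at 13 weeks of age. The KO library came from Adipo-Pgam1 KO mice, which carry Adipoq-Cre and floxed Pgam1. The control library is labelled littermate wildtype, and the methods of the study give its mice as floxed Pgam1 without Cre, so that the floxed alleles were shared and Cre was not. The Adipoq promoter drives Cre in adipocytes, and mature adipocytes are largely absent from the SVF, so most cells described here belong to types that Cre does not target. How many mice gave each library was not given in the sources used here.

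The basement membrane is a thin sheet of matrix under endothelium and mesothelium and around muscle cells, pericytes and adipocytes. Its laminins are heterotrimers of an alpha, a beta and a gamma chain that are joined inside the cell before secretion, and the alpha chain carries the main binding sites for receptors on cells. Nidogens tie the laminin network to the type IV collagen network, perlecan is a large heparan sulfate proteoglycan that binds both, and Sparc is a secreted calcium-binding glycoprotein that binds collagen. Laminins with the alpha2 chain are known from muscle and nerve, and those with alpha4 and alpha5 from blood vessels.

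With 1 library per genotype no test was possible, and no p-value is given. A level is the sum of unique molecular identifiers (UMIs) of a gene over the cells of a class, scaled to 1000000 UMIs of that class (CPM). Intervals are at 95% and cover counting error only: they do not cover differences between mice or between preparations of cells, and UMIs of the same library are not independent animals. A difference between the libraries cannot be told apart from a difference between genotypes. The control library held 42859406 UMIs in 8522 barcodes and the KO library 13821581 in 2730, and 3616 and 937 cells were kept, with a median of 6899 and 7481 UMIs and 2615 and 2585 genes. Of the barcode sequences, 9 were found in both libraries and 0 of these were kept in both. Of 25 clusters 20 took a cell class from marker genes, and the classes that matter here were fibroblast-like cells (778 control and 181 KO cells), smooth muscle-like cells (137 and 27), pericyte-like cells (163 and 15), mesothelial-like cells (104 and 20), endothelial-like cells (153 and 62) and lymphatic endothelial-like cells (56 and 12). In each of these classes every marker of its own list was found in at least 10% of the cells of both libraries. Markers of other classes were present too: the 8 fibroblast markers summed to 21820 and 18859 CPM in mesothelial-like and to 6857 and 7008 CPM in smooth muscle-like cells, beside 43451 and 44527 CPM in fibroblast-like cells (control and KO). The pericyte-like cells of the KO library were few and shallow, with a median of 1516 UMIs against 6230 in the control, and their smooth muscle markers summed to 21939 CPM against 7386 CPM, so pericyte-like and lymphatic endothelial-like cells are given side by side with no ratio between libraries.

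The targeted gene Pgam1 was at 108 CPM in control and 105 CPM in KO fibroblast-like cells, a log2 ratio of -0.04 (-0.23 to 0.14). It was at 84.2 and 66.3 CPM in endothelial-like, 120 and 140 CPM in smooth muscle-like and 116 and 125 CPM in mesothelial-like cells, and each interval of the ratio included 0. Adipoq itself, the adipocyte gene whose promoter drives Cre, was at 0.756 and 0.841 CPM over all cells. In 5 finer clusters of fibroblast-like cells, described below, the Pgam1 ratio ran from -0.25 to 0.18 with intervals that included 0, and no cluster held more than 2 Adipoq UMIs in a library. No loss of Pgam1 was detectable in these classes and clusters at this depth.

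Lama2 and Lama5 differed most in fibroblast-like and blood endothelial-like cells, where the one was high and the other near the background, and the 250 bases before the RefSeq transcript start of these genes are shown for that reason (GRCm38.p6, from the RefSeq promoter table). Lama2 is read from the minus strand, with the window at chr10:27616943-27617192, inside the span of longer GENCODE transcripts of Lama2 and in none of their exons. Lama5 is read from the minus strand too, with the window at chr2:180225860-180226109, outside every annotated exon. Capitals mark the GC box, the letters GGGCGG or, on the other strand, CCGCCC, the motif bound by Sp-family factors.
Lama2: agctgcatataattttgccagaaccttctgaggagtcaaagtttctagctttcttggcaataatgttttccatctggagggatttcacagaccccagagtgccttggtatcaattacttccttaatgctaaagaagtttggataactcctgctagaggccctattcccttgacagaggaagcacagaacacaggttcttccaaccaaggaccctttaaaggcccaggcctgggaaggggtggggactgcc
Lama5: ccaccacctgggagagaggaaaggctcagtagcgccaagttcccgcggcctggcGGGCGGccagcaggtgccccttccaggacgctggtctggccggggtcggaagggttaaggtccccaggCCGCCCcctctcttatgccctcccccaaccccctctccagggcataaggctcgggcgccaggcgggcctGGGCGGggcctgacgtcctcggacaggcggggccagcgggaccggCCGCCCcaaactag

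The Lama2 window had 47.2% G or C, 0 CpG dinucleotides and 0 GC boxes, and the Lama5 window 72.4% G or C, 19 CpG and 4 GC boxes, with fewer CpG in 80.3% of the 32851 promoters of the table. Over all these promoters the median was 52.4% G or C and 6 CpG, 32.7% held a GC box and 12.4% the TATA motif TATAAA, both strands searched. Of the 10 members 7 had an entry, and Lama4, Lamc1 and Nid2 are named only. Lamb1 (14 CpG, 2 GC boxes), Nid1 (16 and 1) and Hspg2 (20 and 5) had windows nearer to that of Lama5, and Lamb2 (3 and 0) and Sparc (4 and 0) nearer to that of Lama2. TATAAA was found in 0 of the 7 windows. A match is a description of letters and not a site, and the windows of Lamb1, Lamb2, Nid1, Hspg2 and Sparc ran into annotated exons.

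Lama2, the alpha2 chain of muscle-type laminin, was mainly a fibroblast-like and smooth muscle-like transcript. Its level was 575 CPM in control and 560 CPM in KO fibroblast-like cells, with a UMI in 97.2% and 92.8% of the cells. It was 362 and 526 CPM in smooth muscle-like, 161 and 117 CPM in pericyte-like and 36.4 and 33.7 CPM in mesothelial-like cells. In endothelial-like cells the control had 4 UMIs and the KO library 0, 5.03 and 0 CPM, and in lymphatic endothelial-like cells 1 and 0 UMIs. These endothelial values lay at the level of T, B and NK-like cells (5.65 and 1.54 CPM), which serve here as the background. Fibroblast-like cells thus lay 114-fold above endothelial-like cells in the control (log2 6.84, 5.48 to 8.72). In the KO library the ratio was 76.1-fold with 3 UMIs over the endothelial-like class put in place of 0, which is not a lower limit. In the control Lama2 was 1.59-fold higher in fibroblast-like than in smooth muscle-like cells (log2 0.67, 0.54 to 0.80), whereas in the KO library these neighbours did not differ beyond counting error (0.09, -0.12 to 0.31).

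Lama5, the alpha5 chain of mature vascular and epithelial basement membranes, was led by endothelial-like cells, with fibroblast-like cells near the background. It was at 153 CPM (127 to 183) in control and 135 CPM (102 to 176) in KO endothelial-like cells, the highest value in both libraries. In the KO library this did not differ beyond counting error from the 77.8 CPM of the 15 pericyte-like cells. Fibroblast-like cells held 7 and 3 of its UMIs, 0.729 and 0.998 CPM, below T, B and NK-like cells at 1.76 CPM in the control and, on those 3 UMIs, above them at 0.768 CPM in the KO library. Endothelial-like cells lay 210-fold above fibroblast-like cells in the control (log2 7.72, 6.63 to 9.06), and the KO ratio, on the 3 KO fibroblast UMIs, was log2 7.08 (5.46 to 9.40). A Lama5 UMI was found in 47.1% and 51.6% of endothelial-like cells, at median depths of 4398 and 6585.5 UMIs, against 0.645% and 0.488% of T, B and NK-like cells at 4277.5 and 5836 UMIs. With every cell thinned to 2000 UMIs the shares were 30.5% and 20.8% against 0.168% and 0.521%. Smooth muscle-like cells (51.4 and 62.1 CPM) and pericyte-like cells (44.6 and 77.8 CPM) came next and did not differ from each other beyond counting error in either library. Of all Lama5 UMIs in cells, 37.9% and 43.0% lay in endothelial-like cells, although these were 4.23% and 6.62% of the cells.

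Lama4, the alpha4 chain of vascular laminins, was spread over every stromal class. Its highest level was in lymphatic endothelial-like cells, at 530 CPM (457 to 613) in the control and 426 CPM (303 to 582) in the 12 KO cells. Fibroblast-like cells followed at 310 and 281 CPM, then pericyte-like cells at 202 and 259 CPM and mesothelial-like cells at 147 and 151 CPM. Blood endothelial-like cells were lower, at 116 and 81.0 CPM, so that the lymphatic cells lay 4.59-fold above them in the control (log2 2.20, 1.83 to 2.58) and 5.26-fold in the KO library (2.39, 1.69 to 3.11). Lymphatic and blood endothelial-like cells were therefore apart for both chains, since Lama5 had 0 UMIs in the control lymphatic cells and 2 in those of the KO library. Smooth muscle-like cells were lowest among the stromal classes, with 57.8 and 67.3 CPM. In the KO library they did not differ from blood endothelial-like cells beyond counting error. Within the class, cluster 16, described below, was lower still, at 38.3 and 47.2 CPM.

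Taken as shares of the alpha chain UMIs of the list within a class, the classes fell into distinct mixtures. A 3′ count need not capture every gene alike, so these shares are compared between classes and not between chains. Lama2 made up 64.9% of the alpha UMIs in control and 66.5% in KO fibroblast-like cells, and 76.8% and 80.2% in smooth muscle-like cells. In pericyte-like cells it was 39.5% (34.8 to 44.4) and 25.7% (12.5 to 43.3, on 35 KO UMIs), and in mesothelial-like cells 17.8% and 15.6%. Lama5 took 56.0% (49.1 to 62.7) and 62.5% (51.5 to 72.6) in endothelial-like cells, 10.9% and 9.49% in smooth muscle-like and 10.1% and 14.1% in mesothelial-like cells. Lama4 took 99.5% and 95.1% in lymphatic endothelial-like cells and 72.0% and 70.3% in mesothelial-like cells. The order of the classes by each share was close between the libraries, and the intervals of the control and KO shares overlapped in each class for each alpha chain.

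**Figure D1:**
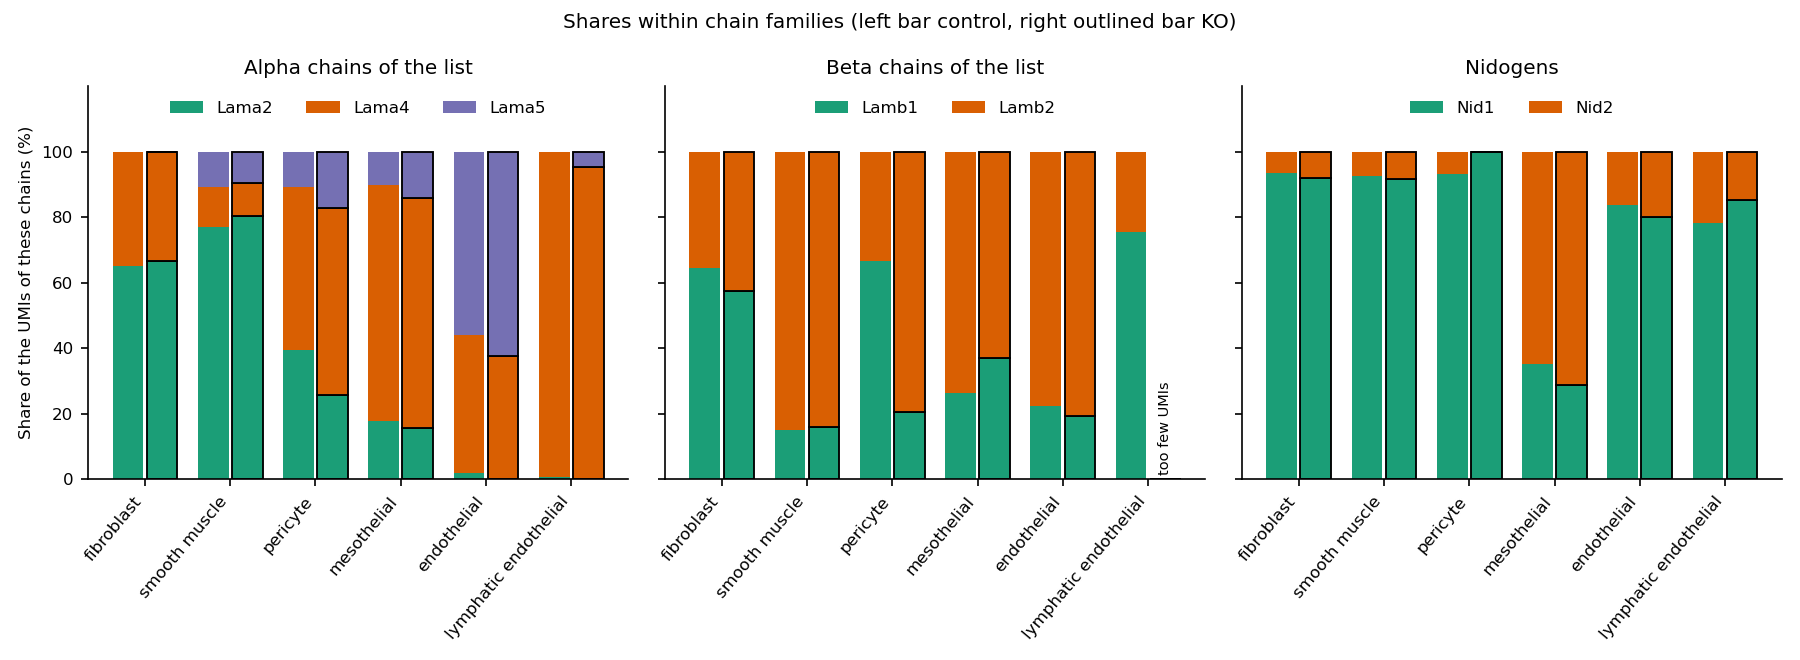
Stacked bars give the percent of UMIs within the alpha chains, the beta chains and the nidogens of the list for 6 stromal classes, control at the left and KO outlined in black at the right of each pair. Lama5 takes over 50% only in endothelial-like cells, at 56.0% and 62.5%, and Nid2 only in mesothelial-like cells, and a family with fewer than 30 UMIs is not drawn.

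The beta chains were apart in a second way. Lamb1, the beta1 chain, was highest in fibroblast-like cells, at 597 CPM in the control and 504 CPM in the KO library, and low in smooth muscle-like (94.9 and 106 CPM), mesothelial-like (89.3 and 104 CPM) and endothelial-like cells (65.3 and 46.6 CPM). Fibroblast-like cells lay 9.14-fold above endothelial-like cells in the control (log2 3.19, 2.80 to 3.62). Lamb1 in endothelial-like cells was concentrated: 13.7% and 11.3% of them had a UMI, and the 5 cells with the most held 63.5% and 89.5% of the UMIs. Lamb2, the beta2 chain known from the neuromuscular junction and the vessel wall, was highest in smooth muscle-like cells, at 536 and 557 CPM, 1.62-fold and 1.49-fold above fibroblast-like cells at 332 and 374 CPM. The smooth muscle-like value was uneven inside the class: cluster 16, described below, was at 634 and 643 CPM, and the rest of the class lay below the class value. Lamb2 was at 229 and 194 CPM in endothelial-like and 250 and 178 CPM in mesothelial-like cells. Lamb2 made up 85.0% and 84.0% of the beta UMIs in smooth muscle-like, 77.8% and 80.6% in endothelial-like and 73.7% and 63.1% in mesothelial-like cells, against 35.7% (34.7 to 36.7) and 42.6% (40.7 to 44.5) in fibroblast-like cells. The control lymphatic endothelial-like cells, at 24.6% (17.0 to 33.5), stood with the fibroblast-like cells and not with the blood endothelial-like cells. Pericyte-like cells gave 33.5% (control) and 79.4% (KO), the latter on 34 UMIs from cells with high smooth muscle markers.

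Lamc1, the gamma1 chain that most laminins share, had 89.2% and 89.9% of its UMIs in fibroblast-like cells. It was at 1139 and 906 CPM there, at 264 and 207 CPM in pericyte-like, 283 and 240 CPM in lymphatic endothelial-like, 196 and 158 CPM in smooth muscle-like, 176 and 150 CPM in endothelial-like and 109 and 114 CPM in mesothelial-like cells. Below the fibroblast-like cells, lymphatic endothelial-like and pericyte-like cells did not differ beyond counting error, and smooth muscle-like and endothelial-like cells did not either, in both libraries. The other gamma chains were not in the list of members, and Lamc3 was at 275 and 311 CPM in smooth muscle-like and 92.2 and 117 CPM in pericyte-like cells, against 14.9 and 8.98 CPM in fibroblast-like cells. Lama3 was at 20.1 and 24.5 CPM in endothelial-like cells. Lama1 stayed at or under 2.59 CPM in the 6 stromal classes, and Lamb3 at or under 3.77 CPM, while Lamb3 was at 39.9 and 45.3 CPM in T, B and NK-like cells.

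The nidogens, which bridge laminin and type IV collagen, did not share a pattern. Nid1 was highest in fibroblast-like cells at 1686 and 1412 CPM, followed by pericyte-like cells at 801 and 479 CPM and smooth muscle-like cells at 294 and 287 CPM, which in the KO library stood beside lymphatic endothelial-like cells at 317 CPM, and it was at 175 and 147 CPM in endothelial-like cells. Nid2 was highest in mesothelial-like cells, at 354 CPM (324 to 387) and 357 CPM (292 to 432), 3.01-fold (log2 1.59, 1.43 to 1.74) and 2.88-fold (1.53, 1.20 to 1.84) above fibroblast-like cells at 118 and 124 CPM. It was low in endothelial-like (33.9 and 36.8 CPM) and smooth muscle-like cells (23.5 and 25.9 CPM). Nid2 therefore made up 64.8% (61.3 to 68.1) and 71.1% (63.2 to 78.3) of the nidogen UMIs in mesothelial-like cells, against 6.53% and 8.06% in fibroblast-like cells. In GENCODE the Nid2 gene overlaps Rtraf on the other strand, and Rtraf had 5619 UMIs in the control, and the strand setting of the counting was not given in the sources used here.

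Hspg2, which encodes perlecan, was highest in fibroblast-like cells, at 905 and 741 CPM, 2.11-fold and 1.96-fold above endothelial-like cells at 430 and 378 CPM. Pericyte-like cells, at 406 and 324 CPM, did not differ from endothelial-like cells beyond counting error, and lymphatic endothelial-like cells were lowest in the control at 95.1 CPM (120 CPM in the KO library). Hspg2, Lamb2, Lama5 and Sparc were higher in blood than in lymphatic endothelial-like cells of the control, and Lama4, Lamb1 and Lamc1 were higher in the lymphatic cells. Sparc was at 4789 and 6068 CPM in fibroblast-like, 8071 and 4756 CPM in pericyte-like, 3783 and 2584 CPM in smooth muscle-like, 3689 and 4117 CPM in mesothelial-like and 2293 and 2543 CPM in endothelial-like cells. It was at 110 and 229 CPM in lymphatic endothelial-like cells, 20.9-fold (log2 4.39, 3.92 to 4.89) and 11.1-fold (3.47, 2.85 to 4.17) below blood endothelial-like cells, and the control value did not differ beyond counting error from T, B and NK-like cells at 118 CPM. Pericyte-like cells were first in the control and fibroblast-like cells first in the KO library, whose pericyte-like cells numbered 15.

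**Figure D2:**
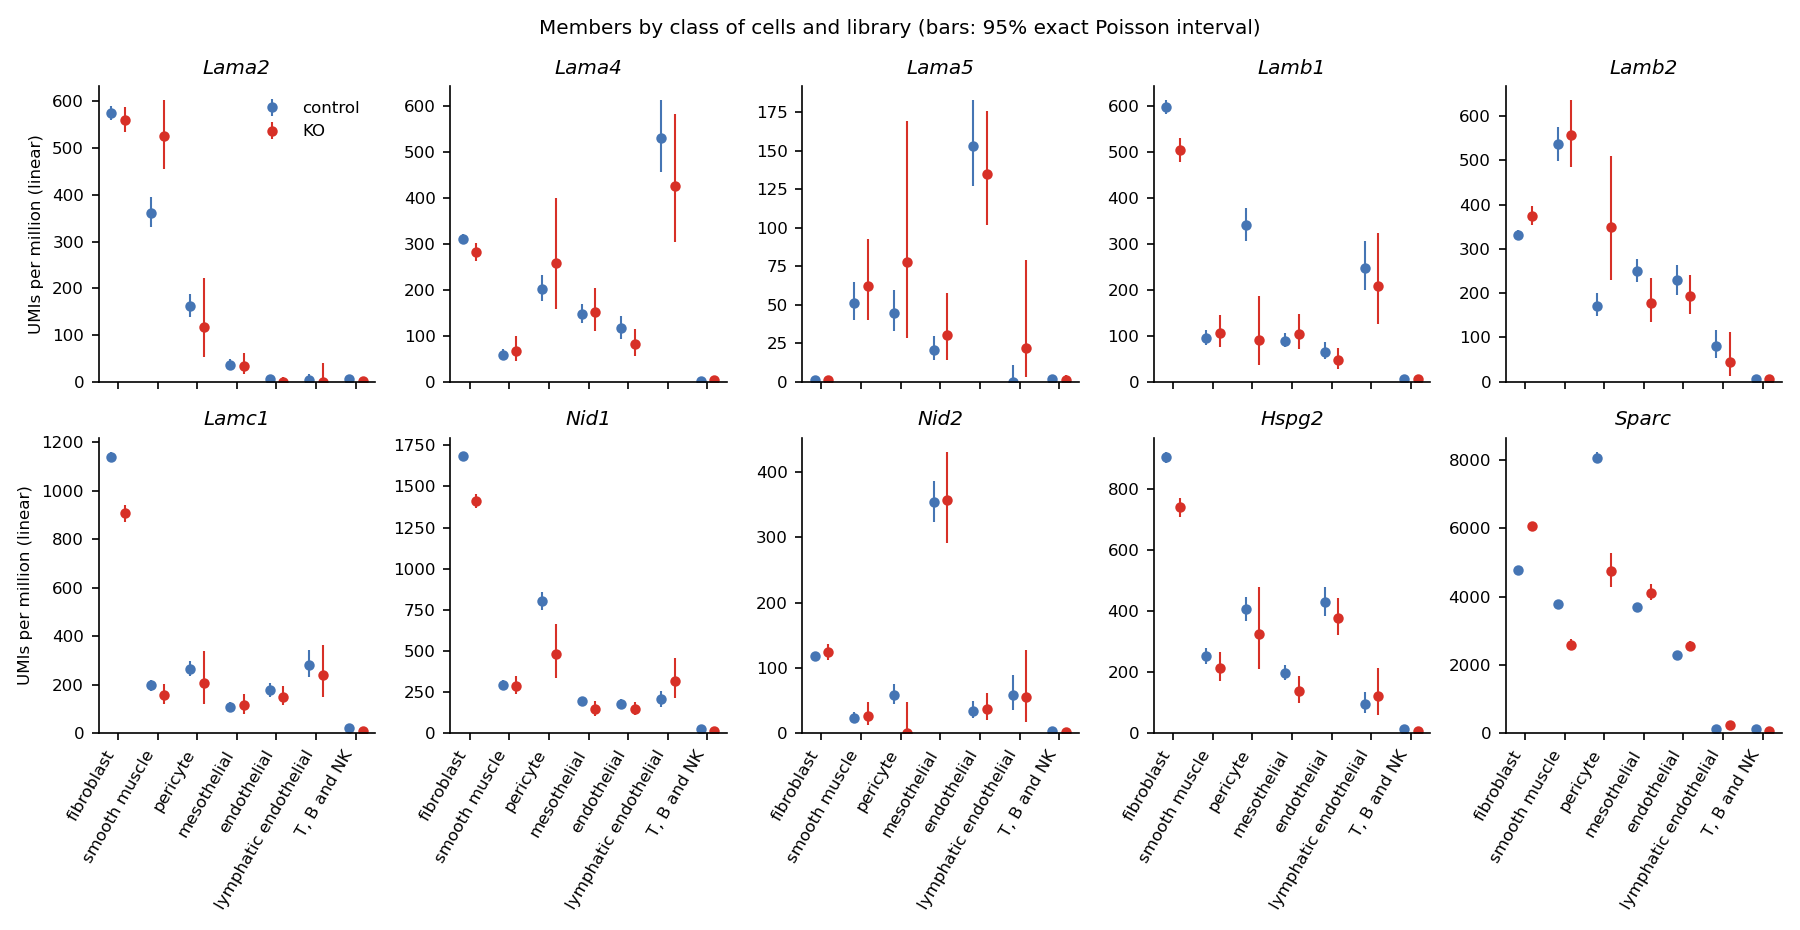
Each panel is 1 of the 10 genes and shows its level in CPM by cell class on a linear axis, control in blue and KO in red, with 95% counting intervals as bars. Lama5 peaks in endothelial-like cells at 153 and 135 CPM and Nid2 in mesothelial-like cells at 354 and 357 CPM, whereas Lama2, Lamb1, Lamc1, Nid1 and Hspg2 are highest in fibroblast-like cells in both libraries.

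The immune classes held low levels of all 10 genes. In T, B and NK-like cells the 9 genes other than Sparc lay at or under 23.6 CPM in the control and 14.6 CPM in the KO library. Sparc there was at 118 CPM in the control and 48.4 CPM in the KO library, a log2 ratio of -1.29 (-1.70 to -0.90), and it was also lower in the KO library in macrophage-like (67.6 and 27.9 CPM), dendritic-like (52.0 and 23.1 CPM) and monocyte-like cells (95.6 and 27.5 CPM). In macrophage-like cells Nid1 (log2 -2.04, 90 and 4 UMIs), Nid2 (-1.56, 81 and 5), Lamb2 (-1.63, 51 and 3) and Hspg2 (-1.48, 61 and 4) also had intervals below 0. So had Lamb1, on 34 and 0 UMIs, while Lama2, Lama4 and Lamc1 had intervals that included 0. The macrophage-like class pooled unequally mixed clusters, led by Folr2 (357 control and 33 KO cells) and by Lyz1 (294 and 63). Within each cluster Nid2, Lamb2, Hspg2 and Lamb1 had intervals that included 0. Nid1 and Sparc had intervals below 0 in the Lyz1 cluster (log2 -3.32 and -1.79) but not in the Folr2 cluster (-0.86 and -0.47). The part of this mixture in the class values was not tested. In T, B and NK-like cells Hspg2 (-1.39) and Lamc1 (-1.23) had intervals below 0 too. So had Lamc1 (16 and 1 UMIs), Nid1 (14 and 0) and Hspg2 (17 and 0) in monocyte-like cells, and Nid1 (25 and 1) in dendritic-like cells. Shares over all genes were not computed for the immune classes. Whether these UMIs came from the immune cells or from free RNA was not tested. Sparc had no such deficit in the fibroblast-like cells of the KO library.

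Endothelial-like cells against fibroblast-like cells gave the same order of the members in both libraries at the extremes, with Lama5 above 0 and Lama2 lowest. Of the 10 members only Lama5 was higher in endothelial-like cells, and the other 9 were higher in fibroblast-like cells in both libraries with intervals that left out 0. The smallest of the 9 gaps was that of Lamb2, log2 -0.54 (-0.76 to -0.32) in the control and -0.95 (-1.30 to -0.62) in the KO library, and Nid1 had -3.27 and -3.26. TMM scaling factors in place of total UMIs moved each of these control ratios by -0.18 and every KO ratio by -0.12.

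The smooth muscle-like class held a pair of clusters that differed in laminin composition as much as whole classes did. Cluster 16 held most cells of the class in both libraries, 83 of 137 control and 21 of 27 KO cells. Cluster 16 (83 control and 21 KO cells) led with Ptn, Tenm2, Ptch1, Inhba and Osr2, and cluster 21 (54 and 6 cells) with Colec11, Id4, Kcnk3, Gm13889 and Tagln. Further down the 10 leading genes came Cnn1 in cluster 16 and Rgs5 and Notch3 in cluster 21. Lama2 was at 541 and 730 CPM in cluster 16 against 52.4 and 18.0 CPM in cluster 21. Lama5 went the other way, with 22.5 and 25.4 CPM against 101 and 153 CPM, and so did Lamc1, with 91.3 and 80.0 CPM against 377 and 351 CPM. Sparc was at 1182 and 1163 CPM in cluster 16 and at 8265 and 6102 CPM in cluster 21. Lamb2 was at 634 and 643 CPM in cluster 16, above the class values of 536 and 557 CPM, and lower in cluster 21, on 190 and 38 UMIs. Lama2 therefore made up 89.9% and 91.0% of the alpha UMIs in cluster 16 but 21.4% and 6.25% in cluster 21, where Lama5 reached 41.3% and 53.1%. The KO shares of cluster 21 rest on 32 UMIs from 6 cells, with intervals of 0.77 to 20.8 for Lama2 and 34.7 to 70.9 for Lama5. These clusters were found from other genes of the same cells, so the differences are a description.

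Within the fibroblast-like cells, 5 clusters were found without the members and the other basement membrane genes among the clustering genes. They are given by their leading genes: cluster 1 by Nov and Efhd1 (60 control and 15 KO cells), cluster 2 by Mfap4 and Cilp (160 and 50), cluster 3 by Cxcl1 and Ttyh2 (190 and 35), cluster 4 by Thbs1 and Cxcl14 (174 and 16) and cluster 5 by Gatm and Agt (194 and 65). Cluster 1 had the highest score for the genes of Dpp4-positive progenitors. Nid1 was highest in cluster 1, at 2742 and 2071 CPM, and lowest in cluster 2, at 1259 and 1137 CPM. Lama4 was highest in cluster 1 too, at 517 and 623 CPM, and was at 211 and 243 CPM in cluster 2. Hspg2 and Lama2 had another order, with 422 and 417 CPM in cluster 1 and 1464 and 760 CPM in cluster 4 of the control. In the KO library the same clusters held 367 and 1437 CPM of Hspg2 and 406 and 759 CPM of Lama2. The order by Hspg2 was that of the type IV collagen gene Col4a1, at 732 and 428 CPM in cluster 1 and 4415 and 4304 CPM in cluster 4, at its extremes. Nid2 was at 38.2 and 53.0 CPM in cluster 1 and 186 and 133 CPM in cluster 4. Sparc was highest in cluster 2 of the control, at 6479 CPM, and in cluster 5 of the KO library, at 7117 CPM, so the fibroblast-like clusters did not keep their order for it.

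**Figure D3:**
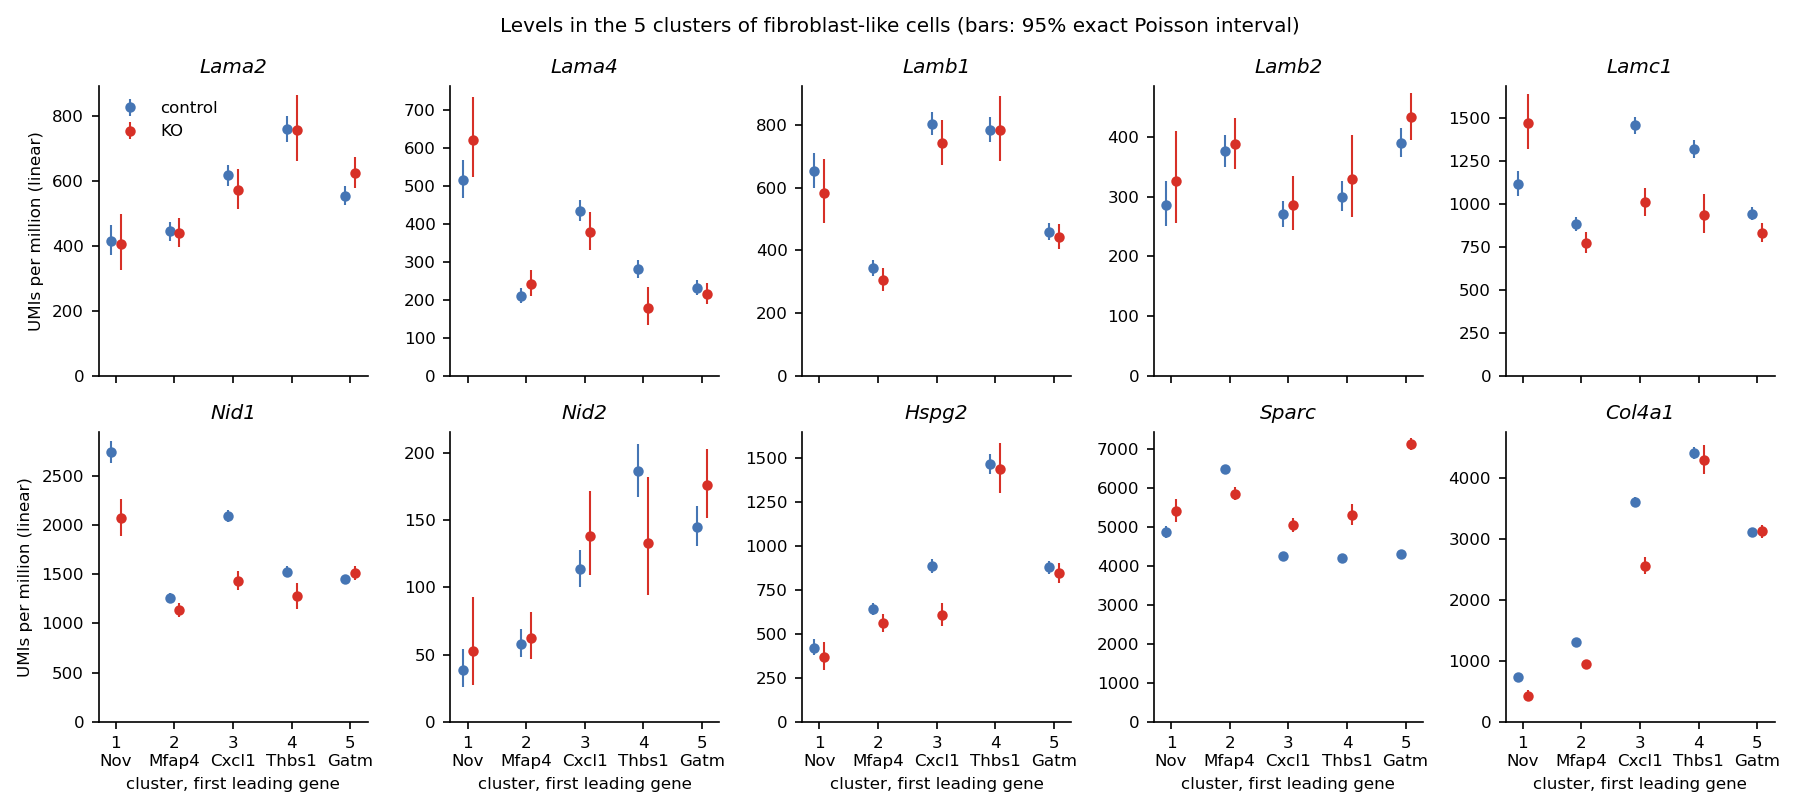
Levels in CPM of 9 members, without Lama5, and of Col4a1 are plotted by cluster for the 5 clusters of fibroblast-like cells, control in blue and KO in red, with 95% counting intervals as bars. Nid1 and Lama4 are highest in cluster 1 (2742 and 517 CPM in the control) and Hspg2 in cluster 4 (1464 CPM), while the Sparc level of the KO library stands apart in cluster 5 (7117 against 4301 CPM).

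Between the libraries, the measured members differed by less than 2-fold in each of the 4 stromal classes with at least 20 cells per library. In the immune classes, given above, Sparc and some other members were over 2-fold lower in the KO library, with no share over all genes computed beside them. In fibroblast-like cells 0 of 10 members were 2-fold higher and 0 were 2-fold lower in the KO library, where 1.16% of 10545 genes were 2-fold higher and 1.66% 2-fold lower. The median log2 ratio of the members was -0.09, beside -0.10 over all 10545 genes, and 2 members had an interval above 0 and 5 below 0. The share of all genes with such an interval was not computed, so these counts are no result about the members. In endothelial-like cells 0 of the 9 measured members were past 2-fold, beside 1.51% of 4227 genes higher and 3.48% lower, with a median of -0.23 against -0.12 over all genes. In smooth muscle-like cells 0 of 10 were past it, beside 1.38% higher and 2.71% lower of 6008 genes, and in mesothelial-like cells 0 of 10, beside 1.24% higher and 4.21% lower of 5320. The medians there were 0.10 and 0.03, against -0.05 and -0.06 over all genes. With shares this small, 0 members past 2-fold is near the background and is no result about the members.

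In fibroblast-like cells Sparc had the largest value above 0 among the well counted members, with 4789 CPM in the control and 6068 CPM in the KO library, a log2 ratio of 0.34 (0.32 to 0.37). Per cell, the quartiles were 2896, 3910 and 5349 CPM in the control and 3548, 5093 and 7978 CPM in the KO library, so the cells of the libraries overlapped widely. The difference was uneven inside the class: log2 0.53 (0.50 to 0.56) in the main cluster led by Inmt and Bmper and 0.02 (-0.02 to 0.06) in the other. Among the finer clusters it was 0.73 in cluster 5, 0.25 in cluster 3 and -0.15 in cluster 2, each with an interval that left out 0. Lamb2 was the other member with an interval above 0, at 332 and 374 CPM (log2 0.17, 0.08 to 0.27).

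The members below 0 in fibroblast-like cells were Lamc1 (1139 and 906 CPM, log2 -0.33, -0.39 to -0.27), Hspg2 (905 and 741 CPM, -0.29, -0.36 to -0.22), Nid1 (1686 and 1412 CPM, -0.26, -0.31 to -0.21), Lamb1 (597 and 504 CPM, -0.25, -0.33 to -0.16) and Lama4 (310 and 281 CPM, -0.14, -0.25 to -0.03). Lama4 thus lay close to the median of all genes, and the other 4 further below it. Lama2 at 575 and 560 CPM (-0.04, -0.12 to 0.04) and Nid2 at 118 and 124 CPM (0.07, -0.10 to 0.24) had intervals that included 0, as had Lama5, on 7 and 3 UMIs (0.45, -2.13 to 2.58). Nid1, Hspg2 and Lamc1 were most apart in cluster 3, with -0.55, -0.54 and -0.53, and closer in cluster 5, with 0.06, -0.06 and -0.18. The mixture of the finer clusters also differed, since cluster 4, with the highest Hspg2 level, held 174 control and 16 KO cells, and its part in the class values was not tested. Chain shares of fibroblast-like cells were apart between the libraries for the beta chains, with Lamb2 at 35.7% and 42.6%, and for the nidogens, with Nid2 at 6.53% (6.17 to 6.91) and 8.06% (7.29 to 8.88), but not for the alpha chains.

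In endothelial-like cells Sparc had an interval above 0, and the other 8 measured members had intervals that included 0. Sparc was at 2293 and 2543 CPM (log2 0.15, 0.04 to 0.26), Lama5 at 153 and 135 CPM (-0.18, -0.67 to 0.29), Lama4 at 116 and 81.0 CPM (-0.51, -1.13 to 0.08) and Hspg2 at 430 and 378 CPM (-0.18, -0.47 to 0.09). The KO library had 33 Lama4 and 55 Lama5 UMIs in these cells, and at that depth a smaller difference was not detectable. Lama2, with 4 and 0 UMIs, was not compared.

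In smooth muscle-like cells Lama2 was higher in the KO library, 362 and 526 CPM (log2 0.54, 0.30 to 0.78), and Sparc lower, 3783 and 2584 CPM (-0.55, -0.65 to -0.45). Cluster 16, rich in Lama2 and poor in Sparc, held 83 of 137 control and 21 of 27 KO cells. Within cluster 16 the Sparc ratio was -0.02 (-0.21 to 0.16) and that of Lama2 0.43 (0.19 to 0.67). The 5 KO cells with the most Sparc held 62.7% of its UMIs in the class, and without the 5 such cells of each library the ratio was -1.35. Without doublet removal the class ratio was -0.04, and at a clustering resolution of 0.3 it was -0.02. The latter is the same value as within cluster 16, and whether the class then held the same cells was not examined. The other 8 members had intervals that included 0.

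In mesothelial-like cells, 20 in the KO library, Hspg2 (198 and 138 CPM, log2 -0.52, -1.03 to -0.04) and Lamb2 (250 and 178 CPM, -0.49, -0.93 to -0.07) had intervals below 0. Sparc was at 3689 and 4117 CPM (0.16, 0.07 to 0.25), but 5 cells held 71.9% of its KO UMIs, and without the 5 cells of each library with the most Sparc the ratio was -0.60. Nid2, the gene with its highest level in this class, was at 354 and 357 CPM (0.01, -0.31 to 0.32).

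**Figure D4:**
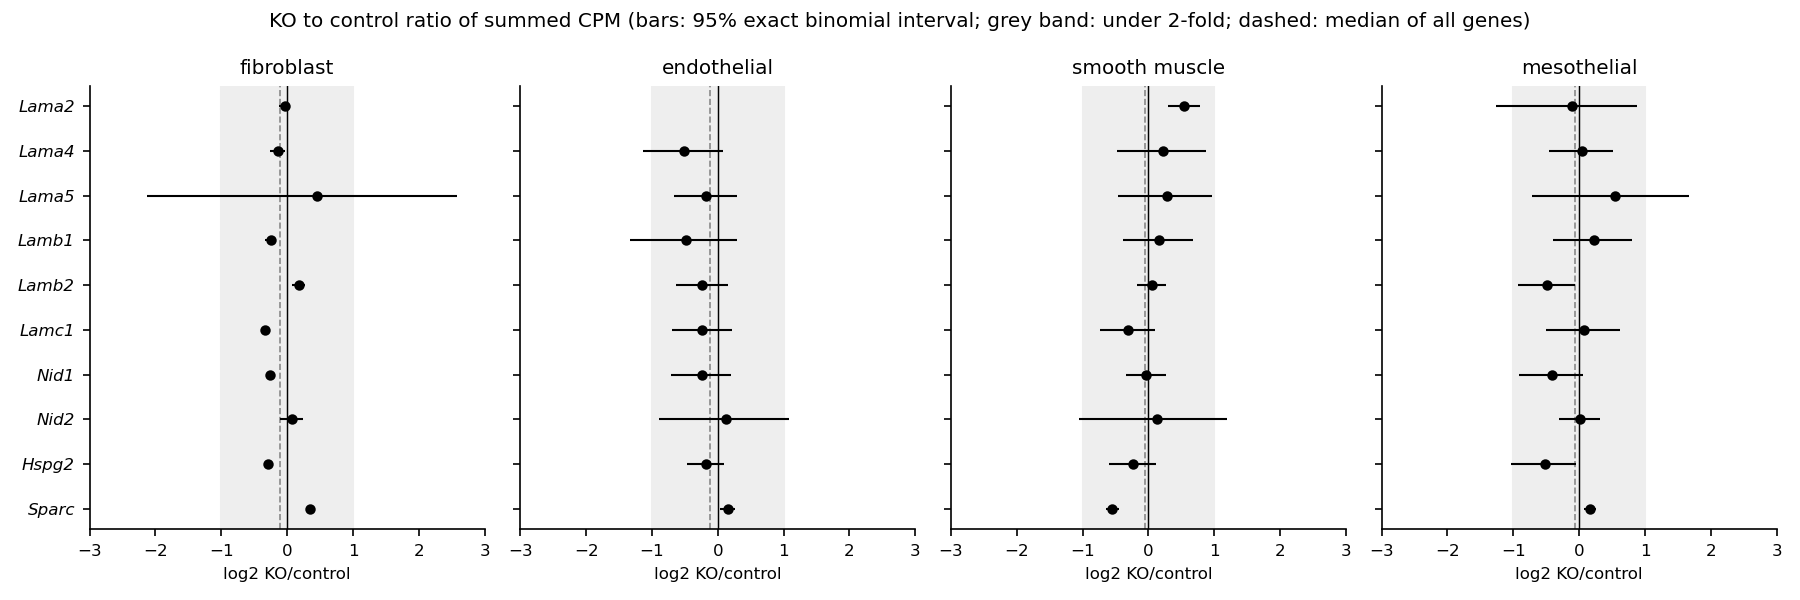
Points give the log2 ratio of KO to control CPM of each member in the 4 classes with at least 20 cells in each library, with 95% counting intervals as bars, a line at 0, a dashed line at the median of all genes and a grey band under 2-fold. In fibroblast-like cells Sparc (0.34) and Lamb2 (0.17) lie above 0 and Lamc1, Hspg2, Nid1, Lamb1 and Lama4 below it, while most intervals of the smaller classes include 0.

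The 47 other basement membrane genes ran from chains and collagens to receptors and collagen-folding enzymes. They were measured from 10 UMIs over both libraries, and the shares of all genes beside them from 50. Counts and shares are therefore not directly comparable, and the counts are no result about the list. In fibroblast-like cells 39 were measured, with a median log2 ratio of -0.08, and 7 had an interval above 0 and 12 below 0. The share of all genes with such an interval was not computed. Of the 39, 1 was 2-fold higher and 0 were 2-fold lower, beside 1.16% and 1.66% of all genes. The 1 gene was the integrin gene Itga2, on 9 and 8 UMIs with an interval that included 0, named here after its value was seen. In endothelial-like cells 31 were measured, with a median of -0.12. Of the 31, 0 were higher and 2 lower by 2-fold, beside 1.51% and 3.48% of all genes. These 2 were Ntn4, a netrin that binds laminin, with an interval that included 0, and Smoc2, a relative of Sparc, with 19 control UMIs and 1 KO UMI (log2 -3.28, -8.66 to -0.63). Smoc2 was at 1290 and 1054 CPM in fibroblast-like cells and at 19.4 and 4.61 CPM in T, B and NK-like cells. In smooth muscle-like cells 40 were measured, with 1 higher and 3 lower by 2-fold, beside 1.38% and 2.71% of all genes. The type IV collagen gene Col4a6 was higher, at 63.5 and 140 CPM (log2 1.14, 0.62 to 1.64), and Npnt, which encodes the integrin ligand nephronectin, was lower, at 208 and 93.2 CPM (-1.16, -1.70 to -0.65). The laminin receptor gene Itga7 was lower too, at 85.6 and 41.4 CPM (-1.05, -1.90 to -0.29), and Frem2 was at 15.7 and 7.77 CPM, on 22 and 3 UMIs with an interval that included 0. In mesothelial-like cells 37 were measured, with 1 higher and 0 lower by 2-fold, beside 1.24% and 4.21% of all genes. The higher gene was Itga7, on 7 and 6 UMIs (2.01, 0.17 to 3.81). These genes of all 4 classes were likewise named after their values were seen.

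The type IV collagen chains Col4a1 and Col4a2, the partner network of the laminins, were read in the same classes. Col4a1 was at 2902 and 2321 CPM in fibroblast-like (log2 -0.32, -0.36 to -0.28), 3013 and 1646 CPM in pericyte-like and 1037 and 862 CPM in endothelial-like cells (-0.27, -0.45 to -0.08). Col4a2 was at 1053 and 1044 CPM in fibroblast-like and 604 and 439 CPM in endothelial-like cells (-0.46, -0.72 to -0.21). In smooth muscle-like cells both had intervals below 0, with -0.61 for Col4a1 and -0.93 for Col4a2, in the class whose clusters were mixed unequally. In fibroblast-like cells Col4a1 stood beside Lamc1, Hspg2 and Nid1 in size and direction, and Col4a2 beside Lama2.

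The genes with the most similar pattern over 24 groups of cells, 13 classes by library, were found among 11218 genes by the Pearson correlation of log2(CPM + 10), as a description in which the points of a library share its depth. Lama2 was most like Abhd11os (r = 0.985) and Prrx1 (0.976), and Lama5 most like Adamts9 (0.888) and Enah (0.879). Lama4 and Lamb1 had the same leading pair, Pvrl3 (0.983 for Lama4) and Rhoj (0.968 for Lama4 and 0.963 for Lamb1). Lamb2 was most like Mgp and Yap1 (0.974), Lamc1 like Ecm2 (0.949) and Ppp2r3a (0.928), and Nid1 like Fstl1 (0.947) and Bgn (0.946). Nid2 was most like Cachd1 (0.951) and Agap1 (0.944), Hspg2 like Ppic (0.973) and Fstl1 (0.970), and Sparc like Gulp1 (0.976) and Igfbp7 (0.974). Fstl1, a follistatin-like secreted relative of Sparc, was the gene shared by Nid1 and Hspg2, and Lama5 had the lowest leading correlation of the 10.

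By GENCODE annotation of GRCm38, Lama2 (chr10:26980036-27619758, minus strand) and Lama4 (chr10:38965515-39110188, plus strand) lie on the same chromosome, and the other 8 members on 8 others. These are Lama5 (chr2:180176373-180225859, minus), Lamb1 (chr12:31265234-31329644, plus), Lamb2 (chr9:108479736-108490530, plus), Lamc1 (chr1:153218922-153332786, minus), Nid1 (chr13:13437551-13512269, plus), Nid2 (chr14:19751265-19811787, plus), Hspg2 (chr4:137468769-137570630, plus) and Sparc (chr11:55394500-55423183, minus).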

How the data were processed

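Single-cell RNA sequencing of gWAT SVF was used, with 1 control and 1 KO library. The authors processed the reads with Cell Ranger 3.0.1 (build mm10; the submitters' processing notes also name Seurat 3.1.5 and R 4.0.1) and deposited UMI counts per gene and barcode without normalization. Depth per library is in the report. The members and lists were chosen with earlier results of these data known.

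Barcodes were kept where 500 or more genes were detected and mitochondrial genes gave no more than 10% of the UMIs. Doublet scores from simulated doublets were computed in each library and the highest removed, 0.8% per 1000 barcodes (6.83% of control and 2.19% of KO cells). Counts were scaled to 10000 per cell and log-transformed, and 2000 variable genes, 30 principal components and Leiden clustering (resolution 0.5, 20 neighbours) gave 25 clusters. Neither the members nor the 47 other basement membrane genes could serve as variable genes. A class name was given to a cluster when its mean z-score over the markers exceeded 0.5, lay 0.75 above the next class, and 3 markers were found in 10% of its cells. Its 10 leading genes also had to hold at least as many markers of that class as of any other. A cluster of low relative depth with no marker of its class among these genes stayed unnamed. The cluster named for innate lymphoid cells led with Foxp3 and Ctla4 and was not used by that name, and unnamed clusters were left out.

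CPM is UMIs summed over a class and scaled to 1000000. Intervals are exact Poisson (levels), Clopper-Pearson (shares) and conditional binomial (ratios) at 95%. The ratio intervals were tried on simulated counts drawn with counting error alone, the error they assume. That trial therefore says nothing of spread between cells or mice. A member was measured with 10 UMIs over both libraries and any gene of the background with 50. Ratios need 20 cells per library. Counts under 3 were set to 3 for medians and 2-fold counts. Genes named by rule are the members, Pgam1, Col4a1, Col4a2, other basement membrane genes at least 2-fold apart with an interval that left out 0 in fibroblast-like or endothelial-like cells, and for each member the 2 genes most correlated with it among those with at least 200 UMIs. Itga2, Ntn4, Lamc3, Lama1, Lama3, Lamb3 and Rtraf were named after their values were seen. With 1 library per genotype there was no p-value. Alternatives changed the cell filter, doublet step, resolution, clustering genes, seed, scaling (edgeR 4.0.16 TMM, median of ratios), cell weight, depth, the top cells and the mixture of clusters. Python 3.11.15, scanpy 1.11.5, leidenalg 0.10.2, scipy 1.17.1 and R 4.3.3 were used.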

Additional observations from a re-analysis of the deposited data

Results flagged for a closer look

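Between classes, 4 pairs of log2 KO to control ratios lay on opposite sides of 0, each with an interval that left out 0, and the differences themselves were not tested. Lamb2 was above 0 in fibroblast-like (0.17) and below 0 in mesothelial-like cells (-0.49), a gap of 0.66. Sparc was below 0 in smooth muscle-like cells (-0.55) and above 0 in fibroblast-like (0.34), endothelial-like (0.15) and mesothelial-like cells (0.16), with gaps of 0.89, 0.70 and 0.71. The smooth muscle-like value was -0.02 within cluster 16, and the mesothelial-like value -0.60 without the 5 cells of each library with the most Sparc.

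Clusters that took no class name were not part of the comparisons, and 3 of them held measured members over 2-fold apart between the libraries with an interval that left out 0, and in 2 of these clusters they were higher in the KO library. In cluster 9, which led with haemoglobin genes and had few UMIs per cell (152 control and 50 KO cells), Sparc was at 3397 CPM in the control and 7779 CPM in the KO library, a log2 ratio of 1.20. The marker z-score of cluster 9 was 1.35 for fibroblasts against -0.04 for the next class. It was left unnamed for its low depth and for leading genes without a fibroblast marker. In cluster 15, which led with Dcdc2a, Mt3 and Mmp7 (79 and 28 cells), Lamb2 was at 3.40 and 59.5 CPM, a log2 ratio of 4.13 on 1 and 11 UMIs (1.35 to 9.56). In cluster 6, which led with Tpsb2, Mcpt4 and Cma1 (177 and 59 cells), Sparc was lower in the KO library, at 99.0 and 27.7 CPM (-1.84, -2.90 to -0.92), and Nid1 had 15 and 0 UMIs. Sparc in cluster 13, led by Klra1 and Klra7, was at 78.4 and 36.6 CPM with an interval that included 0 (-1.10, -2.42 to 0.04).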

How the results depend on the processing

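The median log2 ratio of the members in fibroblast-like cells, -0.09, ranged from -0.22 to -0.01 over 15 settings. In endothelial-like cells, -0.23, it ranged from -0.40 to 0.15 over 14 settings and was above 0 with a stricter cell filter (1000 genes or more, 5% mitochondrial UMIs or less; 0.15) and with cells thinned to 2000 UMIs (0.05). The count of members past 2-fold in fibroblast-like cells, 0, became 1 at resolution 1.0, with another seed and with the low-UMI cluster nearest to fibroblasts added (chosen after seeing the data), in each case Lama5 (1.17, 1.17 and 1.20) on few UMIs. In endothelial-like cells it became 1 without doublet removal, with thinning (Nid2, 1.88) and without the 5 top cells of each library (Lamb1, -1.60). With at least 20 UMIs in place of 50, the share of all genes past 2-fold was 5.35% in place of 2.82% in fibroblast-like and 10.2% in place of 4.99% in endothelial-like cells, with more low genes tested. Sparc in mesothelial-like cells, 0.16, reversed to -0.066 with equal weight for every cell and to -0.60 without the 5 top cells. Sparc in fibroblast-like cells ranged from 0.28 to 0.46, and Lama2 in smooth muscle-like cells from 0.29 to 0.65. Of 522 KO to control values of single members under the alternatives 473 stayed within the reported counting interval, and 37 had the other sign, 35 of them for ratios whose reported interval included 0 and 2 for Sparc in mesothelial-like cells. Of 299 endothelial-like to fibroblast-like values 256 stayed within it, and 0 had the other sign. The mean of ratios within clusters gave no value for endothelial-like, smooth muscle-like and mesothelial-like cells, where fewer than 2 clusters had enough cells. No cell of the 4 classes had at least 3 of 6 Schwann markers. No paired analysis was possible because each genotype had 1 library. The small KO library, with 62 endothelial-like, 27 smooth muscle-like and 20 mesothelial-like cells, limits the depth.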

Other observations

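Among macrophage-like cells, Nid2 was at 30.6 and 16.8 CPM in the cluster led by Folr2 and Pf4 and at 1.57 and 0 CPM in the cluster led by Lyz1 and Mmp12. Nid1 was at 57.7 and 51.3 CPM in the B-like cluster, on 37 and 13 UMIs.

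Barcodes left out by the filters held member UMIs too. In those with at least 500 genes and over 10% mitochondrial UMIs (1703 control and 434 KO barcodes), Lama5 was at 51.1 and 39.7 CPM, against 10.6 and 13.5 CPM over all cells kept, and Sparc at 1119 and 1501 CPM, against 2287 and 2443 CPM. In those under 500 genes (2938 and 1338 barcodes), Sparc was at 1081 and 1309 CPM.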
